A study of Caenorhabditis elegans with 9 samples.

Results

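The experiment profiled the DNA near the transcription factor EGL-43 in dopaminergic neurons of L3 larvae of the nematode Caenorhabditis elegans. It consists of 3 EGL-43 libraries, each set against 1 of 3 control libraries, and its members are all nuclear peaks of the 3 deposited EGL-43 peak lists. These were 3099 of the 6045 peaks in the 6 lists of the series. The control animals (strain TV27654) carried bmd261 alone, a single-copy insertion in which a dopaminergic promoter, labelled dat-1, drives a nanobody against green fluorescent protein (GFP) fused to Dam methylase. The EGL-43 animals (strain TV27655) carried bmd261 and egl-43(wy1449), the endogenous EGL-43 tagged with GFP. A further 3 libraries, used here as background, came from animals with bmd261 and fos-1(wy1539), which tags FOS-1 (strain TV27857). All animals were grown for 3 generations on bacteria lacking Dam methylation and harvested after 24 h on food at 25 °C, about 5000 worms per sample. The labels do not say whether the replicates of a group came from separate cultures, so the spread between them may be partly technical.

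EGL-43 is a zinc finger transcription factor related to mammalian EVI1, and is known in the worm for its roles in neuronal migration and in the anchor cell, which invades the vulval tissue. In NanoDam the nanobody brings Dam to the tagged protein, and Dam methylates adenine in nearby GATC sites. Enzymes that cut only methylated GATC then release the fragments that are amplified and sequenced. The control fusion has no tagged protein to bind and methylates DNA wherever it reaches it, so a peak marks DNA with more methylation in the tagged animals than in the control. Because the fusion is made only where the promoter is active, the signal should come from dopaminergic neurons although DNA was taken from whole worms. Per the submitters' processing notes, the genome build is ce10. No sequence or annotation of ce10 was used here, so peaks are described by position, with no gene names and no sequences. For the same reason the tissue label could not be set against marker genes.

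The 3 EGL-43 lists held 1111, 1080 and 908 nuclear peaks in replicates 1, 2 and 3. They covered 1.65%, 1.69% and 1.28% of the nuclear chromosomes. Divided into windows of 1 kb, the chromosomes held 100159 windows, of which a peak touched 2.74% in replicate 1, 2.76% in replicate 2 and 2.16% in replicate 3. Replicate 3 was the smallest list in both respects. Read depth behind the lists is unknown, and its part in their length was not tested. Since DNA came from pooled whole worms, fewer labelled cells and less methylation per cell cannot be told apart. The lists of FOS-1, each made against the same control library as the EGL-43 list of its number, held 981 ± 130 peaks (SD, n = 3) against 1033 ± 109 for EGL-43 (SD, n = 3). Taken as unpaired lists, the difference of 51.7 was within the spread (two-sided exact permutation test, p = 0.5, adjusted p = 0.571 over 8 such tests; the smallest p that 3 lists against 3 can give is 0.1). Within the pairs that share a control, EGL-43 had more peaks by 44, 35 and 76, a mean of 51.7 ± 21.5 (SD, n = 3; two-sided exact sign-flip permutation test, p = 0.25, the smallest that 3 pairs can give).

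EGL-43 peaks were of similar width in the 3 lists. The median was 1274 bp in replicate 1, 1377 bp in replicate 2 and 1185 bp in replicate 3. The middle of the distribution moved little, with lower quartiles between 806 and 836.5 bp and upper quartiles between 1765 and 1986 bp. Between 81.5% and 88.0% of the peaks of a list measured 500 to 3000 bp. At the narrow end, 103, 106 and 63 peaks were under 500 bp, the narrowest of them 31 bp in replicate 2. At the wide end, 10, 17 and 11 peaks exceeded 5000 bp. The widest peak of replicate 1 lay on chromosome V from 6226677 to 6234843 and overlapped peaks of both other EGL-43 lists, as did the widest of replicate 3, on chromosome V from 10853821 to 10860090. The widest of replicate 2, 11889 bp on chromosome X from 10358507 to 10370395, overlapped no peak of the other EGL-43 lists and stood at the 26.9th percentile of scores in its list. The mean of the median widths was 1279 ± 96 bp (SD, n = 3), against 1635 ± 389 bp for FOS-1 (two-sided exact permutation test, p = 0.2, adjusted p = 0.48). In the pairs that share a control, the EGL-43 median minus the FOS-1 median was -241, 57 and -885 bp (two-sided exact sign-flip permutation test, p = 0.5).

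The authors gave each peak a score, which has no stated scale. Its median was 1.69 in replicate 1, 2.23 in replicate 2 and 3.62 in replicate 3, and the lowest score of replicate 3, 2.98, was close to the highest of replicate 1, 3.07. Scores were therefore turned into percentiles within each list, with 100 for the highest. Wider peaks tended to rank higher, with Spearman correlations between score and width of 0.33, 0.25 and 0.51 across the peaks of replicates 1, 2 and 3, given as descriptions. The share of peaks with an authors' false discovery rate under 0.001 was 57.8%, 62.3% and 74.1%. Under 1e-10 there were 66, 46 and 150 peaks, so the smallest list held the most peaks of very low false discovery rate.

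Peaks were found on all 6 nuclear chromosomes, and on the autosomes they were denser in the middle than towards the ends. Over 3 equal parts of each autosome, the central part carried 14.99 peaks per Mb in replicate 1, 12.1 in replicate 2 and 12.3 in replicate 3. The outer parts held 8.75, 9.88 and 7.17 peaks per Mb. The ratio of central to outer density was thus 1.71 in replicate 1, 1.23 in replicate 2 and 1.72 in replicate 3, above 1 in each list. The X chromosome was not denser in its middle, with ratios of 0.831, 1.00 and 0.983. The centre on average held 43.4% ± 4.7 of the autosomal peaks (SD, n = 3), against 40.4% ± 5.0 for FOS-1, a difference of 3.01 percentage points that was within the spread (two-sided exact permutation test, p = 0.5, adjusted p = 0.571). Without replicate 1 this difference was -1.23 points. Within the pairs that share a control it was 11.5, -4.77 and 2.32 points (two-sided exact sign-flip permutation test, p = 0.75).

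**Figure D1:**
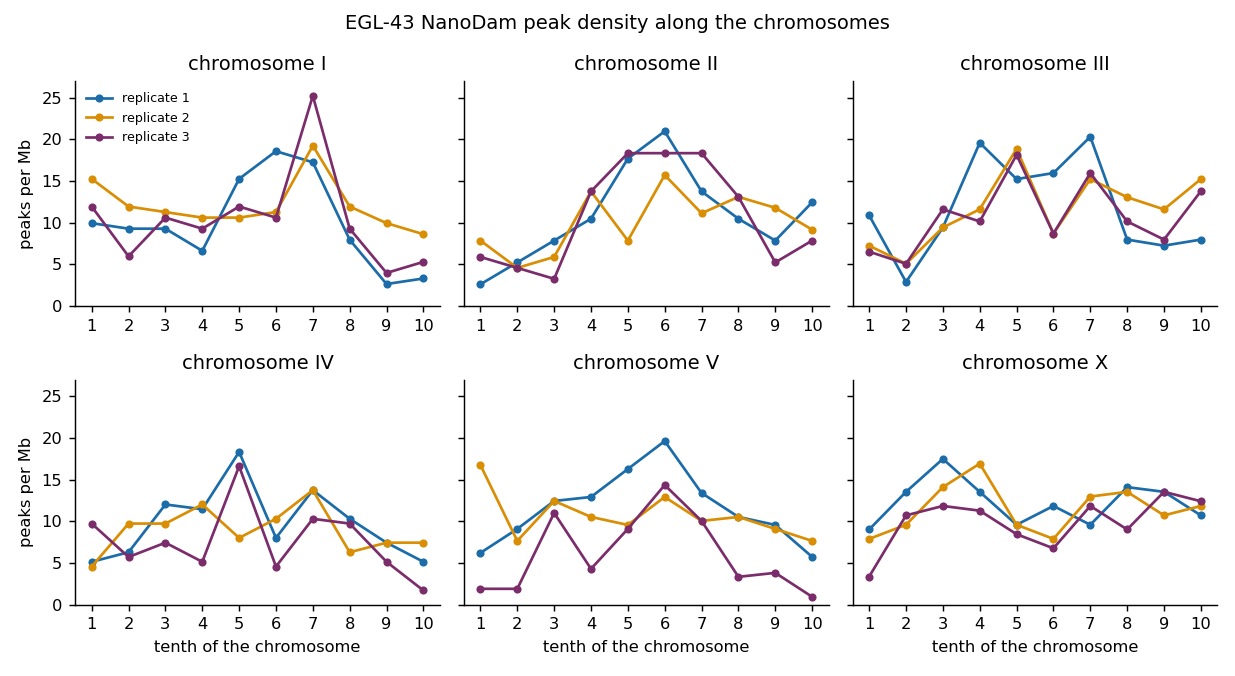
Density of EGL-43 peaks (peaks per Mb, y axis) in 10 equal bins of each of the 6 nuclear chromosomes (x axis), with 1 line per replicate list. Chromosome II was denser in its middle than at its left end in the 3 lists, and replicate 3 was the lowest list at both ends of chromosome V.

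Chromosome II showed the middle most clearly, with 51.8% ± 6.6 of its peaks in the central part (SD, n = 3). The central part of chromosome II held 88, 69 and 96 peaks in replicates 1, 2 and 3, against 26, 29 and 21 in its left part and 53, 56 and 49 in its right part. With chromosome I cut into 10 equal bins, bin 7 held 26, 29 and 38 peaks and was the fullest in replicates 2 and 3. In replicate 1 bin 6 was fuller, with 28 peaks, against 17 and 16 there in replicates 2 and 3. Replicate 2 was the flattest list. Among full windows of 1 Mb, the variance of the peak number was 1.32 times its mean there, against 2.52 in replicate 1 and 3.60 in replicate 3. Chromosome IV was the sparsest chromosome in replicates 1 and 2, with 9.80 and 8.94 peaks per Mb, and chromosome V in replicate 3.

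Replicate 3 had few peaks towards the ends of chromosome V. On the whole of that chromosome it held 127 peaks, 6.08 per Mb, against 242 in replicate 1 and 224 in replicate 2. The first and last of 10 equal bins held 4 and 2 peaks in replicate 3. They held 13 and 12 in replicate 1, and 35 and 16 in replicate 2. The longest stretch of replicate 3 without a peak ran from 17130908 to 20456831, a gap of 3.33 Mb. Replicates 1 and 2 each held 24 peaks in it. The next 2 longest, of 1.68 Mb and 1.19 Mb, also lay on chromosome V, from 2135351 to 3815216 and from 11438 to 1203466, and held 13 and 9 peaks of replicate 1 and 14 and 20 of replicate 2. By contrast, the longest gap anywhere in replicate 1 was 0.935 Mb, and in replicate 2 it was 0.656 Mb. The central part of chromosome V held 9.05 peaks per Mb in replicate 3, against 15.2 and 11.5 in replicates 1 and 2. The right part held 3.74, against 9.34 and 8.62. FOS-1 replicate 3, which used the same control library as EGL-43 replicate 3, had 19 peaks within the 3.33 Mb gap.

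The X chromosome carried slightly more peaks per Mb than the autosomes. The ratio was 1.14, 1.08 and 1.12 in replicates 1, 2 and 3. Among peaks with a false discovery rate under 0.001 it averaged 1.00. The ratio did not differ from that of FOS-1 beyond the spread (1.11 ± 0.03 against 1.09 ± 0.09, SD, n = 3 each; two-sided exact permutation test, p = 0.6, adjusted p = 0.6). Within the pairs that share a control, the difference was 0.0757, -0.108 and 0.112 (two-sided exact sign-flip permutation test, p = 0.75).

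Neighbouring EGL-43 peaks were separated by a median gap of 56232 bp in replicate 1, 59852 bp in replicate 2 and 53883 bp in replicate 3. Gaps spanned a wide range, from 18 bp in replicate 1 to the 3.33 Mb stretch of replicate 3. The mean gap was 1.55, 1.52 and 2.00 times the median, and the SD of the gaps was 1.24, 1.09 and 1.66 times their mean. By these values spacing was most uneven in replicate 3. In FOS-1 replicates 1, 2 and 3 the SD was 1.11, 1.11 and 1.15 times the mean gap. The values were not set against a random scatter. Gaps of at most 10 kb made up 19.5%, 14.8% and 24.2% of all gaps. Gaps of at most 1500 bp numbered 60, 39 and 64, so some peaks were separated by less than their own width.

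**Figure D2:**
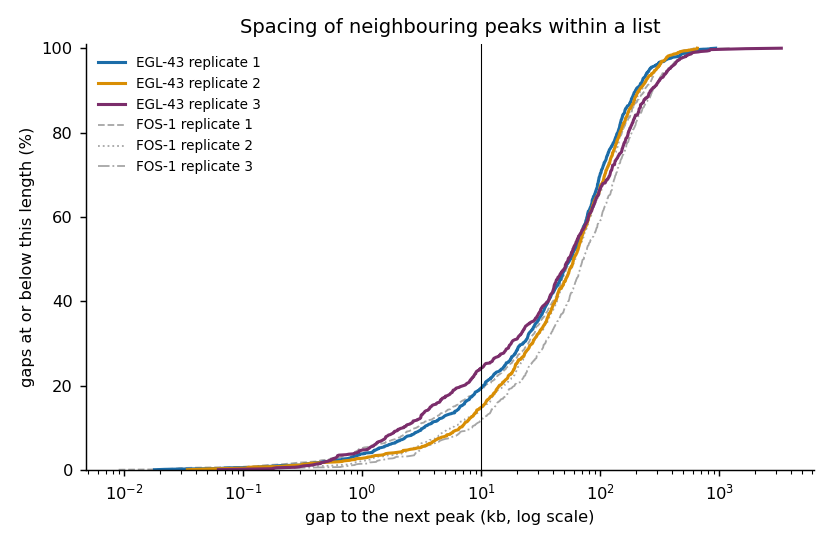
Cumulative share (percent, y axis) of the gaps between neighbouring peaks of a list by length (kb, log scale, x axis), with EGL-43 lists in colour and FOS-1 lists in grey. The vertical line marks 10 kb, at or below which lie 24.2% of the gaps in EGL-43 replicate 3 and 14.8% in replicate 2.

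Most peaks stood alone. With neighbours linked into a chain wherever the gap was at most 10 kb, 730 peaks of replicate 1, 792 of replicate 2 and 532 of replicate 3 had no neighbour. Chains of 3 or more peaks numbered 41, 24 and 42 and held 131, 78 and 144 peaks. These were 11.8%, 7.22% and 15.9% of the peaks, again lowest in replicate 2 and highest in replicate 3. Chains were short, with median spans of 13024, 12885 and 12094 bp. Peaks within chains were more often shared with another EGL-43 list than peaks outside them, by 52.7% against 29.4% in replicate 1, 61.5% against 27.3% in replicate 2 and 47.2% against 37.6% in replicate 3. Their median width was larger in replicates 1 and 2 (1498 against 1257 bp, and 1620 against 1366 bp) and about equal in replicate 3 (1191 against 1185 bp). Judged within the FOS-1 lists, the shared peaks were 21.7% in chains against 17.2% outside, 36.5% against 15.8%, and 12% against 13.4%. The coverage of the other lists near chains was not set beside these shares. Averaged over lists, the share of chained peaks came to 11.6% ± 4.3 with EGL-43 tagged, whereas with FOS-1 tagged it was 7.25% ± 3.09 (SD, n = 3 each). The difference did not pass the test (two-sided exact permutation test, p = 0.2, adjusted p = 0.48) and came to 1.63 percentage points without replicate 3, against 4.37 with it. Within pairs it was 1.01, 2.25 and 9.85 points. The EGL-43 share itself fell to 6.26% when peaks within 1500 bp were merged, to 7.26% at a false discovery rate under 0.001 and to 5.75% for peaks at or above the median score.

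The longest chains differed in how far other lists shared them. In replicate 3, 2 chains had 6 peaks. The chain on chromosome X from 11464697 to 11482999 had 3 peaks in each of replicates 1 and 2, and 5 of its 6 peaks overlapped one of them. The chain on chromosome III from 13584191 to 13597928 had 0 peaks in either. The largest chain of replicate 2, with 5 peaks on chromosome IV from 1906068 to 1916963, met 2 peaks of replicate 1 and 1 of replicate 3. In replicate 1, 3 chains had 5 peaks, on chromosome X from 15372691 to 15396004, chromosome V from 11064695 to 11084055 and chromosome II from 7967507 to 7993014. Only the first of them had peaks in both other lists, 3 in each. The other two had 2 and 3 peaks of replicate 3 and 0 of replicate 2. At least 1 peak of another EGL-43 list fell within 35 of the 41 chains of replicate 1, 23 of the 24 of replicate 2 and 35 of the 42 of replicate 3. Chains are long targets, and judged in the same way within the FOS-1 lists the shares were 52% of 25 chains, 61.5% of 13 and 40% of 15, a difference that was not tested.

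A peak was called recurrent when it overlapped a peak of another EGL-43 list by at least 1 bp. Recurrent peaks numbered 357 in replicate 1 (32.1%), 322 in replicate 2 (29.8%) and 355 in replicate 3 (39.1%). Those with a partner in both other lists were 136, 129 and 131. As a background, 6.34% of the windows of 1 kb were touched by peaks of 1 or more EGL-43 lists, 1.06% by 2 or more and 0.267% by all 3. Single pairs of lists shared similar numbers of peaks, with 223 peaks of replicate 1 overlapping replicate 2, 270 overlapping replicate 3, and 228 of replicate 2 overlapping replicate 3. Partners seldom had the same limits. Between replicates 1 and 2, 12 peaks had an identical start and end, between replicates 1 and 3 there were 15, and between replicates 2 and 3 there were 14. Between 36.1% and 50.1% of the peaks of a list lay within 10 kb of a peak of another given EGL-43 list, against 20.1% to 29.2% that overlapped one. For FOS-1 lists of another number, 25.2% to 39.3% of EGL-43 peaks lay within 10 kb. The remaining distance, as the median over peaks without an overlap, ran from 23122 to 42667 bp between EGL-43 lists and from 26137 to 41450 bp to FOS-1 lists.

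On average 33.7% ± 4.8 of EGL-43 peaks recurred, against 16.0% ± 2.3 of FOS-1 peaks, judged within the FOS-1 lists (SD, n = 3 each). Each EGL-43 list lay above each FOS-1 list. That gives the smallest p-value this design allows (two-sided exact permutation test, p = 0.1), and the adjusted p over the 8 tests was 0.48. The 3 shares of a factor come from the same pairs of lists, so they are not independent. The p-value therefore does not measure the spread between separate lists. The difference of 17.7 percentage points became 8.52 without replicate 3 of both factors, and 16.3 and 19.0 without replicate 1 or 2. In each of these cases a peak could recur in only 1 other list. The same control libraries were also held fixed by asking, for each EGL-43 list, how often its peaks met the EGL-43 lists of the other numbers and how often they met the FOS-1 lists of those numbers. In replicate 1 these shares averaged 22.2% and 11.0%, in replicate 2 they averaged 20.9% and 8.70%, and in replicate 3 they averaged 26.8% and 16.7%. The mean difference was 11.1 ± 1.1 percentage points (SD, n = 3), positive in 3 of 3 lists (two-sided exact sign-flip permutation test, p = 0.25, the smallest 3 lists can give). These 3 differences also reuse the same pairs of lists, so their SD is not a spread of independent values.

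Recurrence varied along the genome. On the X chromosome 41.7%, 36.8% and 46.0% of the peaks of replicates 1, 2 and 3 were recurrent, against 29.8%, 28.2% and 37.4% on the autosomes. The X chromosome exceeded the autosomes by 9.71 ± 1.95 percentage points (SD, n = 3), in 3 of 3 lists. The bases covered by the other EGL-43 lists were also more frequent there, 3.42% ± 0.34 of the X chromosome against 2.67% ± 0.22 of the autosomes. Divided by that coverage, the recurrent share was 12.2 ± 0.8 on the X chromosome and 11.9 ± 0.8 on the autosomes. Such a ratio sets whole peaks against single bases, so it is not a fold over background. The difference of these ratios, 0.30 ± 1.19, was smaller than its SD.

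Autosome centres and outer parts gave a different picture. Recurrent peaks made up 34.0%, 37.2% and 42.3% in the centres of replicates 1, 2 and 3, and 26.2%, 22.7% and 33.2% in the outer parts. The centres were higher in 3 of 3 lists, by 10.5 ± 3.6 percentage points (SD, n = 3). Divided by the coverage of the other lists, 3.67% ± 0.25 in the centres and 2.17% ± 0.24 in the outer parts, the order turned. The ratio was 10.3 ± 0.4 in the centres and 12.5 ± 1.1 in the outer parts, lower in the centres in 3 of 3 lists. It takes no account of peak width, whose median averaged 1336.5 ± 107 bp in the centres and 1160 ± 69.6 bp in the outer parts (SD, n = 3). The zones were compared after the values by chromosome had been seen, and no test was run on them.

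**Figure D3:**
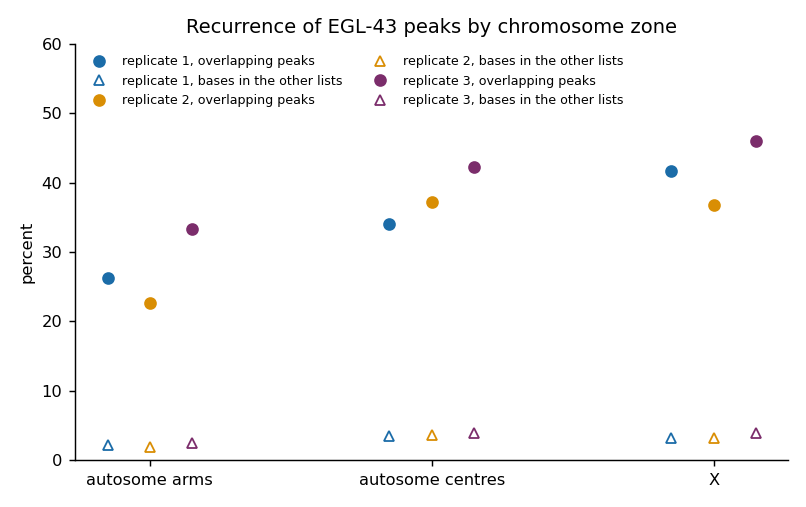
Share of EGL-43 peaks that overlap a peak of another EGL-43 list (filled circles, percent) and share of bases covered by the other EGL-43 lists (open triangles, percent) in autosome outer parts (labelled arms), autosome centres and the X chromosome, with 1 colour per replicate. The circles lie between 22.7% and 46.0%, and the triangles between 1.92% and 3.94%.

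Recurrent peaks ranked higher in their own list. Recurrence was defined by position alone, without the score. The median percentile of recurrent peaks exceeded that of the other peaks by 17.7 in replicate 1, 8.43 in replicate 2 and 20.8 in replicate 3. The mean was 15.6 ± 6.4 (SD, n = 3; two-sided exact sign-flip permutation test, p = 0.25, the smallest possible). Peaks found in both other lists had median percentiles of 68.7, 59.7 and 72.6, and peaks found in no other list 44.7, 46.9 and 41.9. They were also wider, with medians of 2084, 1826 and 1820 bp against 1143, 1291 and 1013 bp. A wide peak meets another list more easily by its length alone. Compared within 4 classes of equal size by width, the difference in percentile was 6.62 ± 3.89 (SD, n = 3; exact sign-flip permutation test, p = 0.25), positive in each list.

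The relation of recurrence to score differed among the 3 lists. In replicate 3 the recurrent share went from 23.0% in the lowest of 4 score classes to 37.7%, 44.9% and 50.9% in the highest. Replicate 1 stayed near 25% in the lower classes, at 25.1% and 25.6%, and reached 47.4% in the highest. In replicate 2 the shares were 25.1%, 26.8%, 37.9% and 29.5%, with the maximum in the class below the highest. The highest class exceeded the lowest by 18.2 ± 12.2 percentage points (SD, n = 3; two-sided exact sign-flip permutation test, p = 0.25). Within width classes the excess was 7.92 ± 7.22 points, with 11.7 in replicate 1, -0.412 in replicate 2 and 12.4 in replicate 3 (exact sign-flip permutation test, p = 0.5). By width alone, recurrence went from 20.6% ± 1.0 in the narrowest class to 52.6% ± 8.2 in the widest (SD, n = 3).

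**Figure D4:**
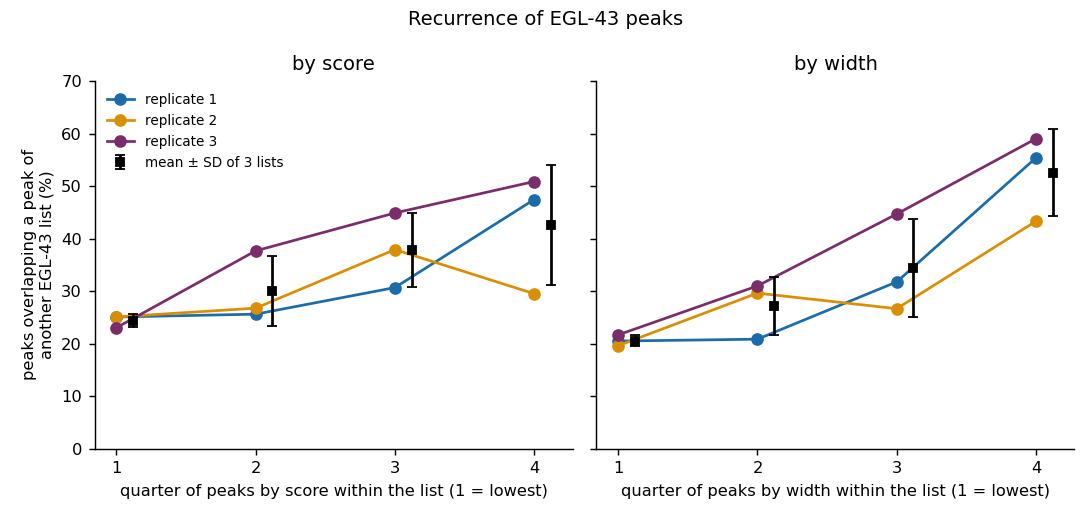
Share of EGL-43 peaks that overlap a peak of another EGL-43 list (percent, y axis) in 4 classes of equal size by score (left) and by width (right), with 1 coloured line per replicate and black squares with bars for the mean ± SD of the 3 lists. The lowest score class lies between 23.0% and 25.1% in each list, while the highest lies between 29.5% and 50.9%.

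Among the highest scores, recurrence again differed between lists. In replicate 1, 4 of the 10 highest-scoring peaks, 8 of the 20 highest and 53 of the 100 highest overlapped another EGL-43 list, a larger share at each step than the 32.1% of the whole list. In replicate 2 the counts were 2 of 10, 5 of 20 and 30 of 100, against 29.8% of the whole list. In replicate 3 they were 0 of 10, 1 of 20 and 50 of 100, against 39.1% of the whole list. Replicate 3 thus had fewer recurrent peaks at its very top and more among its 100 highest. The single highest peak was on chromosome IV from 7816033 to 7817695 in replicate 1, on chromosome IV from 6054291 to 6059339 in replicate 2, and on chromosome V from 17122786 to 17123762 in replicate 3. None of these 3 overlapped a peak of another EGL-43 list. Lists of equal number used 1 control library for both factors. The highest peaks of replicates 2 and 3 each overlapped a peak of the FOS-1 list of their own number, and that of replicate 1 overlapped no FOS-1 peak. Among the 10 highest, 7 in replicate 1, 7 in replicate 2 and 2 in replicate 3 overlapped the FOS-1 list of their number. The same share over whole lists is not given here, and the part of the shared control was not tested. The highest peak of replicate 3, with a score of 7.75 and a width of 977 bp, stood close to the edge of the 3.33 Mb stretch without peaks.

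Peaks of the 3 lists merged into 2477 nuclear regions, the same regions as in the authors' combined list. Of these, 130 had a peak in each list, 282 in 2 lists and 2065 in 1. Regions in 3 lists had a median width of 3450 bp, regions in 2 lists 2168 bp and regions in 1 list 1152 bp. Merging lengthens regions made of more peaks. The share of autosomal regions in the centres was 53.4% (55 of 103) for 3 lists, 50.2% (108 of 215) for 2 lists and 39.4% (676 of 1714) for 1 list. The X chromosome held 20.8% of the regions in 3 lists, 23.8% of those in 2 lists and 17.0% of those in 1 list.

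Within the 130 regions, the bases common to the 3 lists were limited. A common stretch existed in 116 of them, with a median of 1018 bp and a maximum of 4373 bp. It was under 500 bp in 26 regions, reached 1000 bp in 59, and was more than 50% of the region in 19. In 88 regions each list contributed a single peak. The limits of the peaks were the same in the 3 lists in 1 region, the start alone in 10 and the end alone in 5. In all, 128 kb were covered by the 3 lists together.

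The regions lay on all nuclear chromosomes. The median distance to the nearest other region of the 130 was 210 kb, and 24 (18.5%) had one within 50 kb. These values were not set against an even scatter. Chromosome III held the most per Mb, 1.96 (27 regions), and chromosome IV the fewest, 0.745 (13 regions). Chromosome X held 27, chromosomes II and V held 22 each, and chromosome I held 19. On chromosome II, 16 of the 22 lay in the central part, and on chromosome I 9 of the 19 fell in bin 7 of 10. The longest stretch between 2 such regions, 3629 kb, was on chromosome I from 1071113 to 4699712.

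Score ranks within these regions were at most weakly related between lists. With the highest peak of each list taken in each region, the Spearman correlation of percentiles across the 130 regions was 0.12 for replicates 1 and 2, 0.03 for replicates 1 and 3 and 0.09 for replicates 2 and 3. These are descriptions across regions, which are not replicates. The percentiles were above the middle of each list, with medians of 71.6, 61.0 and 74.6. The SD of the 3 percentiles of a region had a median of 22.0. In 48 regions each list was at or above percentile 50, in 12 each was at or above 75, and in 3 each was below 50. Taking the highest peak raises the percentile of a region in which a list has several peaks.

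**Figure D5:**
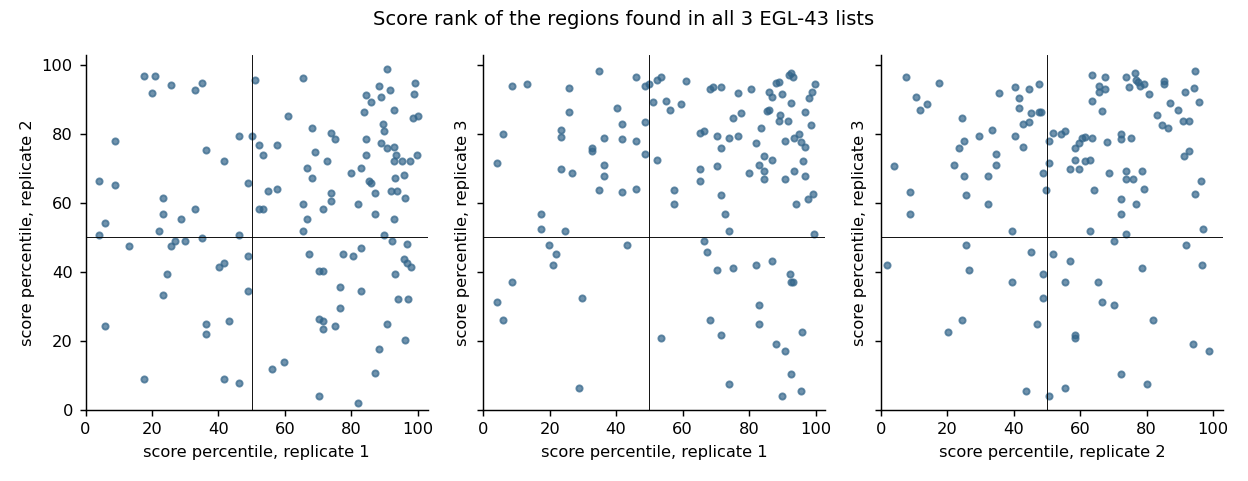
Within-list score percentile of the 130 regions found in all 3 EGL-43 lists, with 1 point per region and 1 panel per pair of replicates. Lines mark percentile 50. Most points lie above 50 in at least 1 list, and the panels show weak relations (Spearman correlations of 0.12, 0.03 and 0.09).

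The leading region of each chromosome, by mean percentile among regions with a common stretch, is given with the values of replicates 1, 2 and 3 in that order. On chromosome V the region from 10036915 to 10047330 had percentiles of 98.8, 91.5 and 92.2 and the longest common stretch of all, 4373 bp. It was the widest of the 130, and the lists divided it into 2, 2 and 3 peaks. On chromosome X the region from 16710321 to 16713429 had percentiles of 99.9, 85.3 and 94.5, with 1641 bp in common. It was the second-highest peak of replicate 1. Neither fell below percentile 85.3 in any list.

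On chromosome IV the region from 7405213 to 7409567 had percentiles of 92.7, 87.0 and 89.0, with an SD of 2.88, the most even of the 6 leading regions. On chromosome III the region from 3696656 to 3699353 had 92.7, 76.3 and 97.8, with 922 bp in common, and was the least even, with an SD of 11.2. On chromosome I the region from 4699713 to 4703300 had 98.6, 84.7 and 82.5, with 2030 bp in common. On chromosome II the region from 8312509 to 8317694 had 89.9, 80.8 and 91.6, with 1500 bp in common. Replicate 2 gave the lowest percentile in 5 of these 6 regions, the exception being the region on chromosome I.

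A long common stretch did not require high scores. The second longest, 3767 bp, lay in the region on chromosome III from 4133652 to 4138823, where replicate 1 stood at percentile 36.3 and replicates 2 and 3 at 75.3 and 78.8. The next, 2965 bp, lay on chromosome III from 4446945 to 4452405, with percentiles of 91.9, 63.5 and 97.2. In the reverse case, the highest mean percentile among regions found in exactly 2 lists was 98.8, on chromosome III from 9905025 to 9906924. Replicates 1 and 2 stood there at 97.7 and 99.8, above each leading region of 3 lists on average, and replicate 3 had no peak.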

How the data were processed

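Libraries of amplified methylated fragments were sequenced on a nanopore instrument after 4 and then 19 cycles of amplification, per the labels' protocols. The submitters' processing notes name minimap2, SAMtools and the build ce10, without their roles; the peak caller is not given in the sources used here. In the deposited lists a peak has limits, a score of unstated scale and a false discovery rate, under a threshold of 0.01 per the file names. Per the labels, a list compares 1 tagged library with 1 control library. Calls were thus made replicate by replicate, and EGL-43 and FOS-1 lists that share a number share a control, which pairs them. The deposited score served only for ranks within a list. Depth is unknown, so no counting interval is given.

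From these lists, widths, gaps, chains and overlaps were computed in Python 3.11.15 with pandas 2.3.3 and numpy 2.4.6 and tested on simulated lists. The end of the last peak over the 6 lists stood for each chromosome's length, 100.2 Mb in total. Autosome centres are the central part of 3 equal parts, by peak midpoint. Lists, not peaks, were the units of tests. The 3 EGL-43 lists were set against 3 FOS-1 lists by exact permutation, adjusted by Benjamini-Hochberg over 8 measures. Measures within the 3 EGL-43 lists were tested by exact sign flips. Recurrent shares of the lists of a factor rest on common pairs of lists, so they are not independent units. Alternatives were a stricter false discovery rate, higher scores, merging or trimming of peaks, other definitions of overlap, chains and centres, and leaving out each number.

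Regions named are, for each chromosome, the highest mean percentile among regions in 3 lists with a common base, the 3 longest common stretches, each list's highest, widest and most chained peaks, and the highest region in exactly 2 lists. Lists and members were chosen with earlier results of these data known. Placing peaks in genes and a planned use of gene lists need an annotation of ce10 and were not run.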

Additional observations from a re-analysis of the deposited data

Results flagged for a closer look

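Mitochondrial peaks lay outside the nuclear comparison. There were 2 in the EGL-43 lists and 0 in the FOS-1 lists. Replicate 2 held one from 1323 to 5383 with a score of 1.76, and replicate 3 another from 7627 to 8527 with a score of 6.52, at or above the scores of 99.7% of the nuclear peaks of its list. They did not overlap, and replicate 1 had none.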

How the results depend on the processing

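Of 87 alternative values for 10 results, 82 kept their direction and 5 reversed. The 82 include the 8 values with lists paired by number, which could not change. They also include the values for scores above 0, a filter that removed no EGL-43 peak. All reversals concern differences between EGL-43 and FOS-1 that did not pass the test, and no p-value in this design can fall below 0.1. The difference in peak number was -2.33 at a false discovery rate under 0.001 and -18.7 for peaks at or above their list's median score. For the density of the X chromosome over the autosomes it was -0.00962 at a false discovery rate under 0.001, and ran from -0.0160 to 0.0938 with 1 number left out. The difference in the central share ran from -1.23 to 6.91 percentage points with 1 number left out. The cause was not tested. Leaving out number 3 shrank the difference in median width to -92.0 bp and in median gap to -553 bp, and leaving out another number widened them to as far as -563 bp and -10630 bp. The difference in recurrent share stayed between 8.52 and 20.9 points. Taken with the replicate block, by exact sign-flip permutation of the paired differences, the 8 mean differences are the same by construction. Among them were 17.7 points of recurrent share (exact sign-flip permutation test, p = 0.25, the smallest possible), from shares that are not independent. No result passed its test under any alternative, and none could, because no p-value in this design can fall below 0.1. The unchanged test outcomes therefore do not show that the results are stable. Both comparisons within width classes, of percentiles and of score classes, were chosen after seeing the data. The clustered difference was 1.88 points with peaks merged within 1500 bp, 1.47 at a false discovery rate under 0.001 and 2.53 at or above the median score. Unknown depth limits what a missing peak can show.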
